A study of Mus musculus with 2 samples.

Results

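The miRNAs mmu-miR-2861 and mmu-miR-3960, which are encoded next to each other in the mouse genome and are known from bone formation, were followed in exosomes of bone marrow stem cells. They were selected by name, as the rows of the miRNA array annotated to either of them, and are 2 of the 1881 mouse miRNAs on the array. Exosomes are small vesicles released by cells. They came from the medium of cultured mouse BMSCs, the mesenchymal stem cells of the bone marrow, after 72 h in normoxia or at 0.2% oxygen (hypoxia), in medium with exosome-depleted serum per the study. Their total RNA, carrying the dye Cy3, was measured on Agilent 1-colour miRNA arrays, with 1 array for normoxia and 1 for hypoxia. No agent or genetic change distinguished the cultures beyond oxygen. With 1 array per condition there was no biological replicate, so every SD and SE below is over the replicate spots of a probe inside an array and no test between conditions was possible. A difference in signal does not separate fewer vesicles that carry a miRNA from fewer copies per vesicle, and those cannot be told apart here.

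miR-2861 and miR-3960 were described in mouse osteoblasts as a cluster that promotes osteoblast differentiation. miR-2861 represses Hdac5, a histone deacetylase that favours degradation of the transcription factor Runx2, and miR-3960 represses Hoxa2, a repressor of Runx2 expression. Runx2, the master regulator of the osteoblast lineage, in turn binds upstream of the cluster and raises its transcription, which closes a positive loop. BMSCs are the precursors from which osteoblasts form.

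Both hairpins lay on chromosome 2, on the minus strand, in the RefSeq annotation of GRCm38.p6. The Mir3960 hairpin spanned 73 bases (chr2:32712900-32712972) and the Mir2861 hairpin 82 bases (chr2:32712807-32712888), with a spacer of 11 bases between them. The stretch from the first hairpin to the last is shown 5′ to 3′ because it holds the whole cluster. The hairpin of miR-3960 comes first in capitals, then the spacer in lower case, then the hairpin of miR-2861 in capitals.
Mir3960-Mir2861 cluster: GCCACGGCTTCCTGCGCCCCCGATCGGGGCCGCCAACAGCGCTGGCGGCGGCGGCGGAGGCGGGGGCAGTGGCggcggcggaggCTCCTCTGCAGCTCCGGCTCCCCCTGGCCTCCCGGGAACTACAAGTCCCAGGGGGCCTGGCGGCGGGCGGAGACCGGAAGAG
No annotated gene overlapped the hairpins. The nearest neighbours were Cdk9, the kinase subunit of the transcription elongation factor P-TEFb, whose annotated start lay downstream of both hairpins on the same strand, and the lncRNA gene Gm33457. The Mir2861 hairpin lay 23 to 104 bases upstream of the Cdk9 start and the Mir3960 hairpin 116 to 188 bases upstream, so both fell inside the 300-base window around that start. G and C made up 78.3% of that window, against a median of 52.7% over 32851 promoter windows of the same length, and 98.2% of those windows had a lower share.

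**Figure D1:**
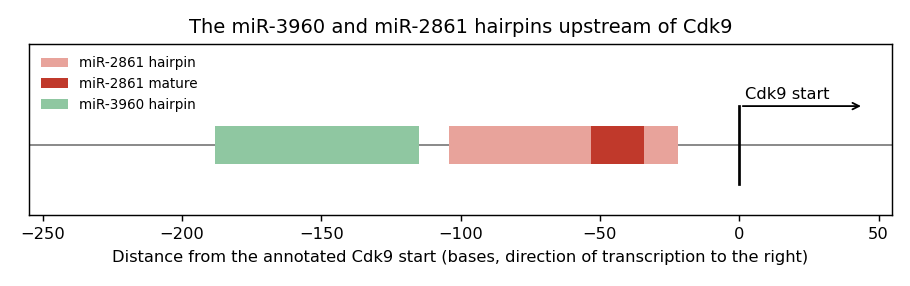
Map of the cluster by distance in bases from the annotated Cdk9 start, with transcription from left to right and boxes for the hairpins and for the mature miR-2861. The miR-3960 hairpin ends 116 bases before the start, and the miR-2861 hairpin ends 23 bases before it.

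The mature sequence of miR-2861 is shown with the other miRNA of the array that carried its seed, since the seed (bases 2 to 8, in capitals) is what pairs with target mRNAs. Of 1608 miRNAs with a mature sequence in RefSeq, only these 2 held the seed GGGCCUG.
miR-2861: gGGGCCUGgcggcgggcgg
miR-3091-3p: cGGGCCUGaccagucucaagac
miR-3091-3p was not detected on either array, so among these 1608 miR-2861 alone gave a measurable signal with this seed. The mature miR-2861 occupied bases 52 to 70 of its hairpin and had 19 bases, of which 94.7% were G or C. Only 2 of the 1608 miRNAs had a higher share, and the median was 52.2%. The Mir2861 hairpin had 73.2% G and C and the Mir3960 hairpin 82.2%. The sequences also shared a run: CUGGCGGCGG, 10 bases long, began at base 6 of the mature miR-2861 and again at base 42 of the Mir3960 hairpin. Among the 1607 other mature miRNAs the longest run shared with miR-2861 was 9 bases, in miR-292b-5p and miR-7069-5p, neither of which was detected. These lengths are not like for like, since a hairpin of 73 bases offers more places for a run than a mature miRNA. No mature sequence of miR-3960 was available, so the mature miRNAs of the cluster were not compared with each other.

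Both miRNAs were detected on both arrays, which held for 9.57% of all miRNAs on the array (180 of 1881). A probe was called detected when over 50% of its spots were well above background by the scanner software. Each miRNA had 2 probes of 15 spots, and no spot was saturated. The level given is the processed signal, a background-subtracted intensity on a linear scale without scaling between arrays.

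In normoxia, probe 1 of miR-2861 read from 31.1 to 47.5 with a median of 38.0, and its mean was 38.0 ± 4.12 (SD, n = 15 spots). In hypoxia the same probe read from 12.0 to 24.6 with a median of 21.0 and a mean of 20.0 ± 3.49 (SD, n = 15 spots). Every one of the 15 normoxia spots was brighter than every hypoxia spot. Probe 2 read from 43.5 to 68.8 in normoxia, with a median of 59.5 and a mean of 56.8 ± 7.42 (SD, n = 15 spots). In hypoxia it read from -2.14 to 25.9, with a median of 17.2 and a mean of 16.7 ± 6.83 (SD, n = 15 spots). The spots of probe 2 did not overlap between the arrays either. Thus in hypoxic exosomes probe 1 retained 52.8% and probe 2 29.5% of the normoxia signal before scaling.

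The hypoxia signal of miR-2861 lay close to the lower limit of the array. All 15 spots of both probes were well above background in normoxia, but 13 of 15 and 11 of 15 were in hypoxia. The dimmest detected probe of any miRNA read 14.5 in normoxia and 13.5 in hypoxia, and the mean of the negative control spots was 4.28 ± 3.10 (SD over 964 spots) in normoxia and 4.28 ± 3.52 (SD over 979 spots) in hypoxia. The raw pixel intensity, before any subtraction, was also higher in normoxia on both probes. The median over spots went from 77 to 59 on probe 1 and from 97 to 66 on probe 2, with local background medians between 19 and 21. Between the probes in hypoxia the order changed with processing. Probe 2 had the higher raw median (66 against 59) and the lower processed median (17.2 against 21.0).

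miR-3960 did not share this pattern. Probe 1 read from 120 to 155 in normoxia, with a median of 132 and a mean of 134 ± 9.89 (SD, n = 14 spots), and from 65.3 to 184 in hypoxia, with a median of 151 and a mean of 145 ± 30.5 (SD, n = 14 spots). Probe 2 read from 127 to 160 in normoxia, with a median of 148 and a mean of 146 ± 9.61 (SD, n = 14 spots), and from 95.0 to 187 in hypoxia, with a median of 164 and a mean of 158 ± 24.4 (SD, n = 15 spots). The arrays overlapped on both probes. On probe 1, 7 of 14 hypoxia spots exceeded every normoxia spot, and on probe 2, 8 of 15 did, but no normoxia spot lay below all hypoxia spots. Before scaling, the hypoxia mean was 108% of the normoxia mean on both probes, a difference smaller than the SD between hypoxia spots. An outlier spot was left out on probe 1 of each array (40.7 and 64.3) and on probe 2 of the normoxia array (64.0).

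**Figure D2:**
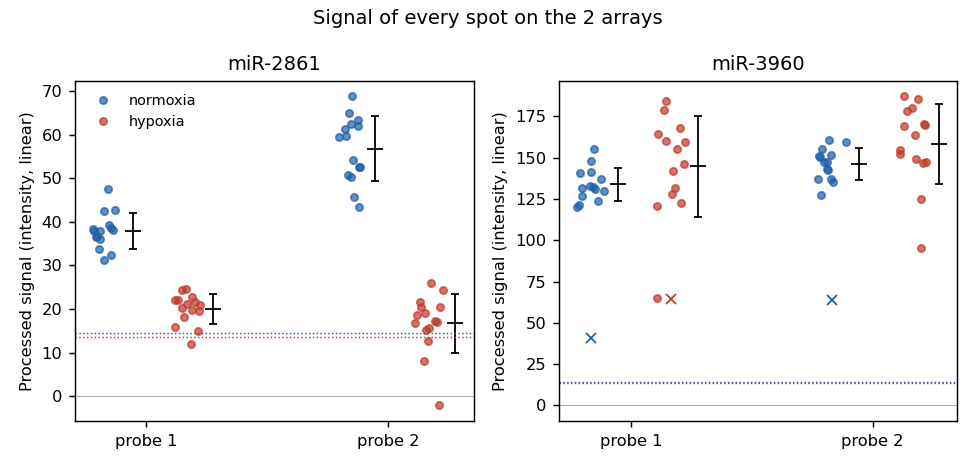
Processed signal (linear intensity) of each spot of both probes of miR-2861 and miR-3960, normoxia in blue and hypoxia in red, with outlier spots as crosses, black bars for the mean ± SD without them, and dotted lines at the dimmest detected probe of each array. The hypoxia spots of miR-2861 all lie below its normoxia spots, while those of miR-3960 overlap and spread more widely in hypoxia.

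Spots varied more on the hypoxia array as a whole. The software's median coefficient of variation between spots was 9.68% in normoxia and 15.8% in hypoxia, and the software marked the hypoxia array for evaluation on this measure. The coefficient was 17.4% and 40.8% for the probes of miR-2861 in hypoxia and 21.0% and 15.4% for those of miR-3960. Well above background were 9.96% of miRNA spots in normoxia and 8.59% in hypoxia. The part of these differences between the arrays in the values of the cluster was not tested.

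The arrays were next scaled to each other by quantile normalization of the probe means, as the study names it, and a log2 difference of hypoxia minus normoxia was taken over the probes. miR-2861 had a log2 signal of 5.32 in normoxia and 4.54 in hypoxia. Its log2 difference was -0.78 ± 0.089 (SE over spots), a 1.71-fold lower signal in hypoxia. This stayed under the 2-fold line that 10.0% of the 180 miRNAs measured on both arrays passed downward. Of the 180 miRNAs, 26 had a lower difference than miR-2861. miR-3960 had a log2 signal of 6.90 in normoxia and 7.46 in hypoxia. Its log2 difference was 0.56 ± 0.053 (SE over spots), a 1.47-fold higher signal in hypoxia, likewise under the 2-fold line, which 18.3% of miRNAs passed upward. A higher difference was found for 60 of the 180 miRNAs. The median difference of all 180 was 0.17, so relative to it miR-2861 stood at -0.95 and miR-3960 at 0.39.

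**Figure D3:**
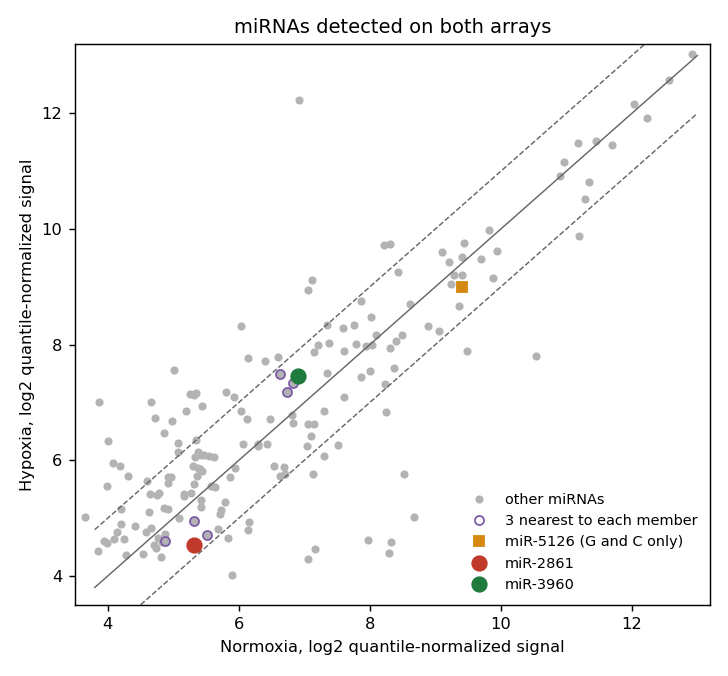
Log2 quantile-normalized signal in normoxia (x axis) and hypoxia (y axis) of the 180 miRNAs detected on both arrays, with the line of equality, dashed lines at 2-fold, and the cluster miRNAs in colour. miR-2861 lies below the line of equality and miR-3960 above it, both inside the 2-fold lines.

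The log2 differences of the cluster miRNAs had opposite signs, so the gap between them is larger than either by construction. The log2 difference of miR-3960 exceeded that of miR-2861 by 1.34 after quantile normalization and by 1.46 under each of the other 5 scalings, where a single factor per array cancels between them. A ratio within an array shows that the signals of the cluster miRNAs moved unequally, and does not show that miR-3960 was unchanged. The arrays were also split into 4 blocks by position. Without scaling, the log2 difference of miR-2861 ranged from -1.52 to -1.18 over the blocks and that of miR-3960 from -0.0048 to 0.22, with 6 to 9 spots per block on the hypoxia array.

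The probes of miR-2861 agreed on the direction and not on the size. After quantile normalization probe 1 went from 32.2 to 26.8, a log2 difference of -0.26 ± 0.076 (SE over spots), and probe 2 from 49.5 to 20.2, a log2 difference of -1.29 ± 0.16 (SE over spots). Probe 2 alone thus passed 2-fold (2.45-fold lower) and probe 1 alone did not (1.20-fold lower). The gap of 1.03 between them was the widest among the 115 miRNAs for which several probes were measured in both conditions, where the median gap was 0.15. The probes of miR-3960, at 0.54 ± 0.086 and 0.58 ± 0.063 (SE over spots), differed by 0.047, and 98 of the 115 miRNAs had a wider gap. The size given for miR-2861 is therefore an average of probes that disagree by more than their spot error.

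The scaling between arrays set on which side of 2-fold each miRNA fell, while the direction of both was kept. Without scaling, miR-2861 was 2.54-fold lower in hypoxia (log2 difference -1.34), where 20.0% of miRNAs were at least 2-fold lower. It also passed 2-fold when arrays were scaled to the 75th percentile of those probes that both detected (-1.02), where 13.9% of miRNAs passed downward, and when the hybridization spike-ins were set equal (-1.22), where 16.7% did. miR-3960 passed 2-fold upward only when arrays were scaled to the 75th percentile of all miRNA probes (1.04), as 32.2% of miRNAs then did, and its log2 difference was 0.11 without scaling. Over the 6 scalings miR-2861 ranged from -1.34 to -0.42 and miR-3960 from 0.11 to 1.04. Where a single factor scaled the arrays, 23 of 180 miRNAs had a lower difference than miR-2861 and 55 a higher one than miR-3960. With the normexp background correction and its offset of 50 in place of the software's correction, the difference of miR-2861 shrank to -0.24. That offset exceeds the processed hypoxia means of the miR-2861 probes (20.0 and 16.7) and shrinks log2 differences of dim probes by construction. The parts of the offset and of the background correction in this shift were not tested. Under the strictest filter, which kept a probe only if all its spots stood well above background, miR-2861 counted as detected in normoxia alone and had no measured difference.

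**Figure D4:**
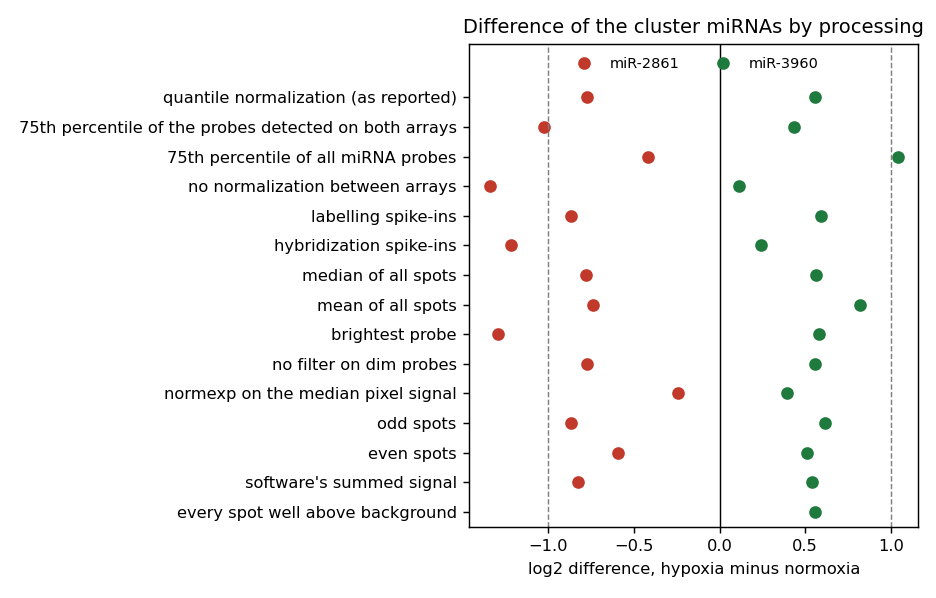
Log2 difference of hypoxia minus normoxia (x axis) for miR-2861 and miR-3960 under each processing choice (y axis), with dashed lines at 2-fold; miR-2861 has no point under the strictest filter on dim probes. All points of miR-2861 lie below 0 (-1.34 to -0.24) and all of miR-3960 above 0 (0.11 to 1.04).

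The miRNAs with the most similar pair of signals were found by Euclidean distance over the log2 normalized signals of the 2 arrays. Nearest to miR-2861 were miR-6931-5p (distance 0.25, log2 difference -0.80), miR-676-3p (0.41, -0.37) and miR-1249-3p (0.45, -0.27). Nearest to miR-3960 were miR-532-5p (distance 0.14, log2 difference 0.51), miR-193b-3p (0.27, 0.87) and miR-129-2-3p (0.33, 0.46). With 2 arrays, nearness describes level and direction only.

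Next, the G and C share of the mature sequences was set beside the differences, because miR-2861 has one of the highest shares on the array. Among the 1608 miRNAs with a mature sequence, 4 were at or above its share. They were miR-2861 itself and the 3 below, shown with the seed in capitals because of their likeness in composition.
miR-5126: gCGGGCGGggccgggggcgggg
miR-6538: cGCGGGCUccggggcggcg
miR-8109: gCGCCGCGugccggccgcggg
miR-5126 consisted of G and C alone (100%), and the probe that was brighter in normoxia went from 798 ± 30.3 (SD, n = 14 spots) in normoxia to 483 ± 69.6 (SD, n = 15 spots) in hypoxia. Its log2 difference was -0.41 and ranged from -0.65 to 0.28 over the scalings, so its direction depended on the scaling while that of miR-2861 did not. miR-6538 was detected in hypoxia only, with a signal of 22.8 against 9.80 in normoxia before scaling. Set against the dimmest detected probe of the normoxia array, it was at least 2.41-fold higher in hypoxia after quantile normalization, and without scaling the bound was 0.66 on the log2 scale, under 2-fold. miR-8109 was detected on neither array. These 4 miRNAs thus gave, after quantile normalization, 2 lower signals, 1 higher and 1 without a signal. miR-3960 is not counted because no mature sequence was available for it. Its hairpin had 82.2% G and C, and its log2 difference was 0.56, a higher signal in hypoxia.

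Over more miRNAs the same comparison gave a lower median for high G and C. The 14 miRNAs with at least 70% G and C that were measured on both arrays had a median log2 difference of -0.61, with 4 at least 2-fold lower and 1 at least 2-fold higher. The 147 with a smaller share had a median of 0.17, with 13 lower and 28 higher. miR-2861 is one of the 14, while miR-3960 had no mature sequence available and is in neither group. Across all 161 measured miRNAs with a sequence, Pearson's r between G and C share and log2 difference was -0.070 and Spearman's rho was 0.015. These points share the same 2 arrays, and miRNAs are not independent replicates. The part of base composition in the difference of miR-2861 was not tested.

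The cluster was then placed beside 30 other miRNAs known from osteoblasts, 10 reported to favour osteoblast formation and 20 reported to restrain it. Both arrays detected 17 of them, 1 (miR-103-3p) was detected in normoxia only and 12 on neither array. At least 2-fold higher in hypoxia were 2 of 17 (11.8%, against 18.3% of all measured miRNAs). None of the 17 was at least 2-fold lower, against 10.0% of all measured miRNAs. The median log2 difference was 0.084, beside 0.17 for all miRNAs, and this median turned negative without scaling (-0.37), with the 75th percentile of the shared probes (-0.050) and with the hybridization spike-ins (-0.24). The miRNAs of the list that favour osteoblast formation had a median of 0 over 9 measured members, and those that restrain it 0.24 over 8.

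As the mean over its probes, the difference of miR-2861 was below that of every one of the 17, after quantile normalization and under each single-factor scaling. After quantile normalization the lowest of the 17 was miR-29b-3p, which represses inhibitors of osteoblast differentiation, at -0.57 (range over the scalings -0.76 to 0.17). Probe 2 of miR-2861 alone (-1.29) lay below miR-29b-3p and probe 1 alone (-0.26) lay above it. Without scaling miR-20a-5p was the lowest of the list, at -0.94. The highest was miR-210-3p, the miRNA best known for induction by HIF under low oxygen, at 5.30. The other one past 2-fold was miR-214-3p, which represses the osteoblast transcription factor Atf4. Its brighter probe went from 112 ± 19.1 to 196 ± 34.7 (SD over 15 spots each) under hypoxia, with a log2 difference of 1.20 that fell to 0.81 without scaling. The 3 brightest of the list by mean log2 signal were miR-21a-5p (0), miR-29a-3p (0.076) and miR-20a-5p (-0.54), each under 2-fold. The 0 of miR-21a-5p follows from its probes holding the same ranks on both arrays, since quantile normalization gives equal values to equal ranks. miR-3960, at 0.56, lay between members of this list.

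**Figure D5:**
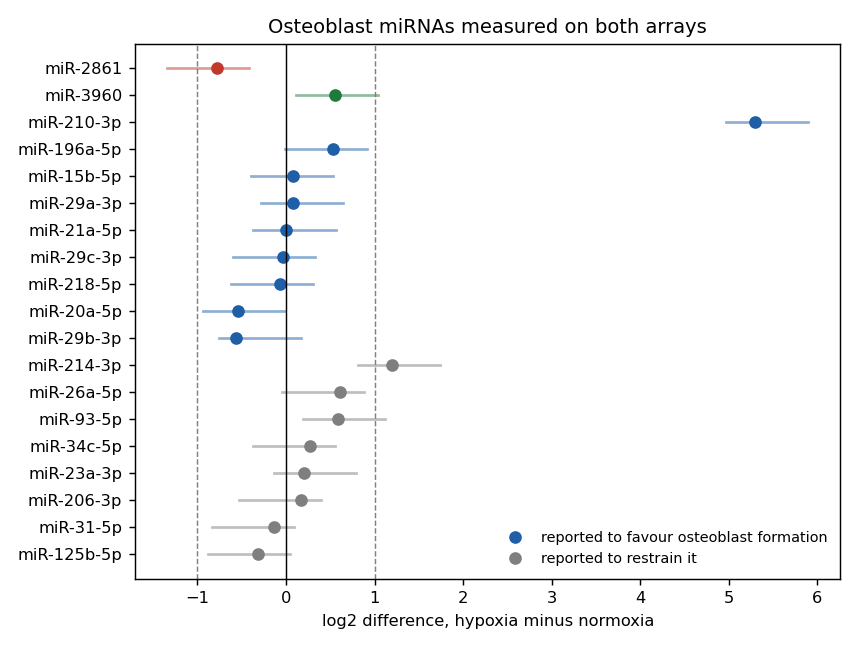
Log2 difference of hypoxia minus normoxia (x axis) for the cluster miRNAs and the 17 osteoblast miRNAs measured on both arrays, with points for quantile normalization, bars for the range over 6 scalings and dashed lines at 2-fold. miR-2861 (-0.78, the mean over its probes) lies lowest, and only miR-210-3p (5.30) and miR-214-3p (1.20) lie beyond 2-fold.

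Markers of the source cells were checked last. Of 5 miRNAs typical of mesenchymal cells, 4 were detected on both arrays, with log2 differences from 0.029 to 1.20, and miR-145a-5p on neither. Their summed signal was 764 in normoxia and 755 in hypoxia. Of 6 epithelial and neural markers none was detected. Of 9 markers of red cells, leukocytes and liver, 4 were detected in normoxia and 1 in hypoxia, and their summed signal was 588 and 44.4. That difference was carried mainly by the red cell miRNA miR-451a, at 448 in normoxia and 26.5 in hypoxia, and by the liver miRNA miR-122-5p, at 78.5 and 7.04. On the hypoxia array, where these markers were lower, miR-2861 was also lower and miR-3960 was not. After quantile normalization 77 of all 180 measured miRNAs were lower in hypoxia and 102 higher, so this match does not single out miR-2861. The part of such RNA in the signal of the cluster was not tested.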

How the data were processed

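Exosomal RNA of 1 normoxic and 1 hypoxic BMSC culture was profiled on Agilent mouse miRNA arrays. Scanned images were read by the authors in Feature Extraction 11.5.1.1 (per the file headers), with background subtraction and spot flags. The deposited intensity values are linear, can fall below 0 and are not scaled between arrays. The labels describe labelling by reverse transcription, whereas the study's methods name a kit for miRNA labelling. The deposited flags (other columns, 0 or 1) gave outlier spots and spots well above background. The largest difference between the value table of the series and the scanner signal was 0.

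Outlier spots (4 flags) were dropped and the others averaged per probe (Python 3.11.15, numpy 2.4.6, pandas 2.3.3). Probe means were quantile-normalized over the 2 arrays, and log2 differences were averaged over probes detected on both. A miRNA detected on 1 array was given a bound against the lowest detected signal of the other array, or against its own signal where that was higher. The line of 2-fold is the study's. The code was tested on simulated data. No test was run on 1 array per condition, and their number limits the precision. Both arrays shared a slide and a scan, and array position and condition cannot be told apart.

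Named miRNAs were both cluster members, the 3 nearest to each by signal, miRNAs with a shared seed, and, from the osteoblast list and the miRNAs rich in G and C, the 3 brightest and the largest difference in each direction. Runs of shared bases, with the miRNAs named for them, and the 70% share of G and C were added after values were seen. The rule does not cover miR-103-3p, miR-214-3p and the cell markers miR-145a-5p, miR-451a and miR-122-5p, which were named after their values were seen. The cluster, the lists and the rule were chosen with earlier results of these data known. Sequences, positions and neighbours are from RefSeq on GRCm38.p6. The array design names another build, so no positions were taken from the array. Alternatives were 5 other scalings, other spot and probe summaries, other filters on dim probes, and normexp with an offset of 50 (limma 3.58.1, R 4.3.3) on the raw median pixel intensity deposited by the authors.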

Additional observations from a re-analysis of the deposited data

How the results depend on the processing

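Direction was kept for miR-2861 (lower in hypoxia, -1.34 to -0.24 over 13 alternatives) and miR-3960 (higher, 0.11 to 1.04 over 14). Shifts were held against the SD of the log2 difference between single spots (0.46 for miR-2861, 0.28 for miR-3960). This SD is wider than the SE over spots (0.089 and 0.053). For miR-2861, 10 of 13 alternatives moved the log2 difference by less than this SD. Beyond it lay no normalization (-1.34), the brightest probe alone (-1.29) and normexp (-0.24), whose offset of 50 shrinks differences of dim probes by construction. For miR-3960, 11 of 14 stayed within it. Beyond it lay the 75th percentile of all probes (1.04), no normalization (0.11) and the hybridization spike-ins (0.24). Both counts include dropping the filter, and that of miR-3960 the strictest filter. These leave the values as they were by construction and do not bear on stability. The lead of miR-3960 over miR-2861, a result added after the values were seen, ran from 0.64 to 1.88: 1.88 with the brightest probe and 0.64 with normexp. A single scaling factor cancels in it, and dropping the filter leaves it as it was by construction, so those alternatives do not bear on its stability. Odd spots alone gave -0.87 and 0.62 for miR-2861 and miR-3960, and even spots -0.59 and 0.51. With every spot well above background, miR-2861 counted as detected in normoxia alone and had no difference.

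The osteoblast list median (0.084) became -0.050 with the 75th percentile of shared probes, -0.37 without normalization, -0.24 with hybridization spike-ins, -0.062 with the software's summed signal, 0.56 with the 75th percentile of all probes and 0.41 without a filter on dim probes. The median of the miRNAs richest in G and C, taken without miR-3960 (-0.59), became -0.070 with the 75th percentile of all probes, -0.997 without normalization and 0.0095 without a filter. The cause of each shift was not tested. The median of all miRNAs went from -0.27 without normalization to 0.66 with the 75th percentile of all probes. The value table gave the values of the scanner signal. No paired analysis was possible because there was a single array for either condition, and for the same reason no array could be left out.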

Other observations

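The software's own summed signal per miRNA, before any scaling, gave 20.1 in normoxia and 7.79 in hypoxia for miR-2861, a log2 difference of -1.37, and 59.3 and 64.2 for miR-3960, a log2 difference of 0.11. By the brightest probe, miR-2861 ranked 128 of 225 detected miRNAs in normoxia and 165 of 199 in hypoxia, and miR-3960 ranked 84 of 225 and 70 of 199. These ranks are descriptions, since probes differ in response.

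The run shared by the mature miR-2861 and the Mir3960 hairpin was also sought elsewhere. Runs of 8 bases or more in common with the Mir3960 hairpin were found in 18 of 1607 other mature miRNAs, 2 of them detected, and runs of 10 bases in miR-6897-5p and miR-3058-5p, neither detected. With the mature miR-2861, runs of 8 bases or more were found in 4, of which miR-5126 was the only one detected.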
